A study of Homo sapiens with 6 samples.

Results

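NOX4 is one of the catalytic NADPH oxidases, and its messenger RNA was followed with and without FAC in ARPE-19, an established cell line derived from human retinal pigment epithelium. It was found by its symbol in the platform annotation, which gave 1 probe set of 16098 named ones and 1 gene of 14884. The cells had been kept at 1% serum for 4 weeks after reaching confluence and then spent 2 days in serum-free medium, either with 250 µM FAC (in iron research, ferric ammonium citrate) or with vehicle. Each group held 3 biological replicates, 1 array each. All cells were of this 1 line, and 1 dose and 1 time were used. NOX4 was selected on its fold change between these same 2 groups, so its own values are a description and carry no test.

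NADPH oxidases carry electrons from NADPH across a membrane, through bound FAD and heme, to oxygen. Several members of the family give superoxide and wait for cytosolic activators, and others are switched on by calcium. NOX4 releases mainly hydrogen peroxide and is active as soon as it is made and paired with the membrane subunit p22phox, so that its output is set largely by how much of it is present. In fibroblasts and smooth muscle it is a well-known target of TGF-beta through SMAD proteins. The transmembrane heme core of the NADPH oxidases is related to that of the STEAP ferric reductases.

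RefSeq lists 3 start windows for NOX4, all on the minus strand of chromosome 11 in GRCh38.p14. The window with the highest share of G and C (72%) is shown because it was the only one of the 3 with a match to any of the 6 motifs searched; it runs over the 250 bases before the start, chr11:89491376-89491625, and capitals mark the SMAD-binding element CAGAC on either strand.
NOX4: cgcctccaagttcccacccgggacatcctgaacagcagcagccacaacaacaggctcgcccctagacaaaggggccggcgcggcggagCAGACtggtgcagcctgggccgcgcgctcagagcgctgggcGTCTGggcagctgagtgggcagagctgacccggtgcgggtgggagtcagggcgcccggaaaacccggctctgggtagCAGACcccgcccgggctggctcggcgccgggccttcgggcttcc
CAGAC matched at 3 places in this window, which begin 162, 121 and 44 bases before the start. At least 1 match is common, in 38% of 35116 RefSeq windows of this length, and 3 or more occur in 1.62% of them. The cut of 3 is the count seen here. The 1.62% makes no allowance for that, for the choice among 3 windows and 6 motifs, or for the share of G and C. The other motifs were the palindromic SMAD box GTCTAGAC, the hypoxia response core ACGTG, the antioxidant response core TGACNNNGC, the E2F site TTTCGCGC and the AP-1 site TGANTCA, each searched on both strands. They are held by 0.182%, 18.5%, 10.9%, 0.439% and 6.57% of all windows, in that order, and by none of the 3 windows of NOX4. These matches describe letters only, and which start ARPE-19 cells use was not analysed here.

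NOX4 was lower on every FAC array than on every untreated array. Its log2 intensity was 10.38, 10.31 and 10.23 in FAC replicates 1, 2 and 3, against 10.92, 10.87 and 10.88 in untreated replicates 1, 2 and 3. The groups did not overlap, and the gap between the highest FAC array and the lowest untreated array, 0.49, was larger than the range within the FAC arrays (0.15) or within the untreated arrays (0.04). NOX4 averaged 10.31 ± 0.07 in FAC-treated cells and 10.89 ± 0.02 in untreated cells (SD, n = 3 each), a log2 fold change of FAC over untreated of -0.58 ± 0.06 (SE). On the linear scale this is 1.50-fold lower, or 66.9% of the untreated level. In bulk RNA, fewer cells that express NOX4 and less NOX4 RNA per cell cannot be told apart. Of the 14884 genes, 0.390% had a more negative change and 0.759% a larger change in either direction. The groups did not overlap in 23.4% of all genes, with the FAC arrays below in 13% and above in 10.4%, so separation alone was common. Without any 1 array the NOX4 change lay between -0.62 and -0.54. The signal of its probe set stood at percentile 95.8 of the tested genes, far from the dim end. Brightness also depends on the probe sequences, so this percentile does not rank transcripts by amount.

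**Figure D1:**
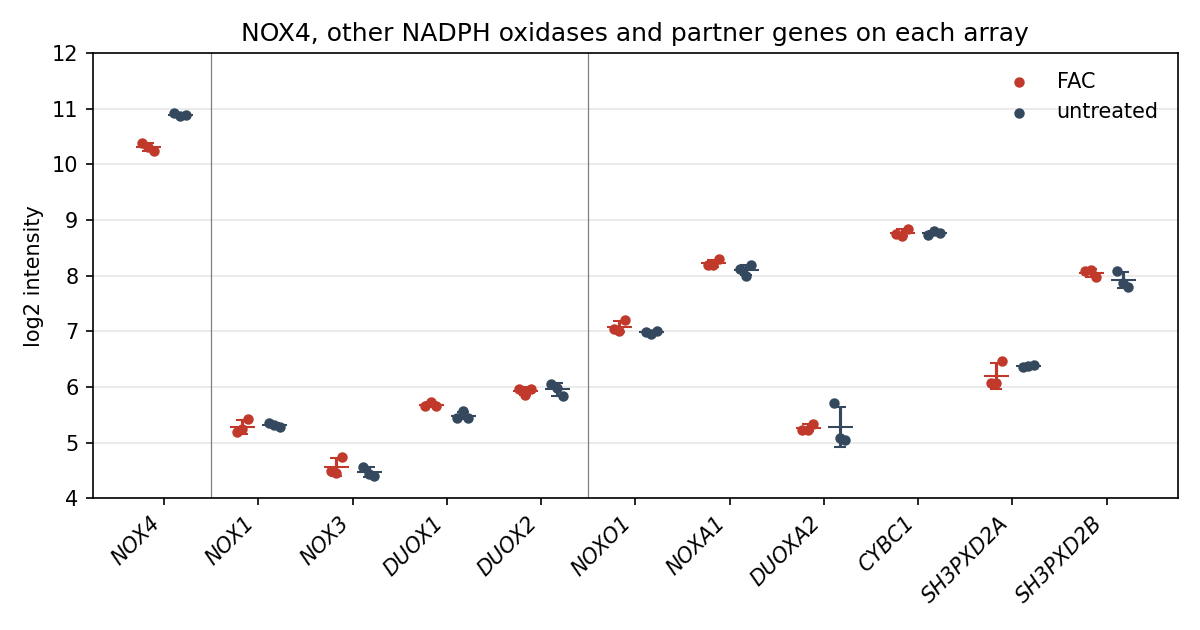
The plot gives log2 intensity (y axis) on each of the 3 FAC and 3 untreated arrays for NOX4, 4 other NADPH oxidase genes and 6 partner genes (x axis), with points for arrays and bars for mean ± SD. NOX4 lay at 10.31 in FAC-treated and 10.89 in untreated cells, and the groups of 9 of the other 10 genes overlap, all but those of DUOX1.

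The study's comparison asks how 2 days of FAC change gene expression in these cells. Other genes were compared between the groups with limma's moderated test, adjusted over all 14884 genes, with calls at an adjusted p under 0.05. It called 3.73% of genes, of which those higher with FAC were 1.88% of all genes and those lower 1.85%. Before adjustment, 2560 of the 14884 genes had a p under 0.05 in limma, so such a p alone was common. The counts of unadjusted p-values given below for the lists are to be read beside that number. The median change over all genes was -0.0041. The labels call the samples biological replicates without saying how the cultures were kept apart, and the p-values measure the spread between these samples.

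None of the other measured genes of the NADPH oxidase system passed the test in either direction. Over all genes 3.73% were called, so no call among so few genes is near that share. Of 21 listed genes, 10 were measured, and 1 of these, DUOX1, had an unadjusted p under 0.05 in limma. The mean was higher with FAC in 6 and lower in 4, and their changes ran from -0.17 to 0.20, with a median of 0.05. The 95% intervals of the 10 changes ran no lower than -0.42, and none reached the -0.58 measured for NOX4. Since NOX4 was selected on that change, this distance does not set it apart from the family. Of the 10, 6 stood among the dimmest 33.3% of genes, where a change can be hidden by background, and the deposited table has no detection calls.

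Among the catalytic subunits, DUOX1, a dual oxidase that supplies hydrogen peroxide at epithelial surfaces, measured 5.65, 5.73 and 5.66 in FAC replicates 1, 2 and 3, against 5.45, 5.56 and 5.44 in untreated replicates 1, 2 and 3. The FAC arrays all lay above the untreated ones, opposite in direction to NOX4, but the change of 0.20 ± 0.06 did not pass (limma adjusted p = 0.124). DUOX2, its close relative from thyroid and gut, averaged 5.93 ± 0.07 in FAC-treated and 5.96 ± 0.11 in untreated cells (SD, n = 3 each). NOX1, the colon oxidase, averaged 5.28 ± 0.12 in FAC-treated and 5.31 ± 0.03 in untreated cells, and NOX3, the oxidase of the inner ear, 4.56 ± 0.16 in FAC-treated and 4.47 ± 0.09 in untreated cells (SD, n = 3 each). In all 3 the groups overlapped, with 95% intervals of the change from -0.20 to 0.14 for DUOX2, from -0.19 to 0.14 for NOX1 and from -0.11 to 0.30 for NOX3. CYBB, the phagocyte oxidase also called NOX2, and the calcium-activated NOX5 have no named probe set and were not analysed here.

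Among the partners, CYBC1, a chaperone of the p22phox-containing oxidase complex, averaged 8.77 ± 0.06 in FAC-treated and 8.77 ± 0.04 in untreated cells (SD, n = 3 each), with a 95% interval of the change from -0.13 to 0.13. The organizer gene NOXO1 (0.10 ± 0.06) and the activator gene NOXA1 (0.12 ± 0.07), whose products switch on NOX1 in the cytosol, did not pass. SH3PXD2A and SH3PXD2B encode the TKS scaffolds, organizers related to NOXO1. They measured -0.17 ± 0.11 and 0.13 ± 0.08, opposite in sign, and neither passed. DUOXA2, the maturation factor of DUOX2, measured -0.02 ± 0.16, the least precise value of the 10. Its level in untreated replicate 1, 5.70, lay apart from 5.09 and 5.06 in untreated replicates 2 and 3. Of the partners, those that matter most for NOX4, p22phox (CYBA) and POLDIP2, have no named probe set and were not analysed here, nor were NCF1, NCF4, RAC1, RAC2, RAC3 or DUOXA1. Whether the partner that NOX4 requires moved with it is therefore not known from these values.

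The ferric reductases, which share a related heme-bearing fold or reduce iron for uptake, did not pass either. Of 6 listed genes 4 were measured, with a median change of -0.0022, and none had an unadjusted p under 0.05 in limma. FRRS1, a ferric reductase of the cytochrome b561 family, had the smallest p (0.17 ± 0.10, adjusted p = 0.441).

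Of 27 listed genes that TGF-beta induces, NOX4 left out, 14 were measured. Of these 7 fell, 7 did not pass and none rose, against 1.85% of all genes called lower. The means of ELN and BGN were higher with FAC (0.10 ± 0.10 and 0.08 ± 0.08). The FAC arrays lay below the untreated ones in 12 of the 14, against 13% of all genes. The median change of the list was -0.26, against -0.0041 over all genes. The fall of these targets was known when the list was drawn up, so the count describes the setting of NOX4 and is not independent evidence of a direction.

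SMAD7, the inhibitory SMAD that TGF-beta induces as feedback, measured 9.02, 8.90 and 9.02 in FAC replicates 1, 2 and 3, against 9.55, 9.46 and 9.68 in untreated replicates 1, 2 and 3. The groups did not overlap, and the change of -0.59 ± 0.07 (limma adjusted p = 0.00714) was close in size to that of NOX4. ANGPTL4, a secreted inhibitor of lipoprotein lipase that hypoxia and PPAR ligands also induce, fell by 0.58 on the log2 scale (SE 0.08, limma adjusted p = 0.0101). LTBP2, a matrix protein of the latent TGF-beta binding family, fell by 0.53 (SE 0.06, limma adjusted p = 0.00714), and its second probe set gave -0.34. SKIL, which encodes the SMAD co-repressor SnoN and is itself switched on by TGF-beta, fell by 0.40 (SE 0.06, limma adjusted p = 0.0116). The other 3 that fell were SPHK1, the sphingosine kinase gene (-0.32), the collagen cross-linking enzyme gene LOX (-0.26) and CCN2, which encodes connective tissue growth factor (-0.26, and -0.19 by its second probe set). SPHK1, CCN2, ELN and BGN are named here after their values were seen. ANGPTL4 and SKIL lost their calls without FAC replicate 1 or untreated replicate 3. The count of 7 became 2 without FAC replicate 1 or untreated replicate 3, and 4 without FAC replicate 2, FAC replicate 3 or untreated replicate 1. It was 11 with a variance prior that follows intensity and 2 with every probe set tested.

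Upstream of these targets, 17 of 26 listed genes of TGF-beta ligands, latency proteins, receptors and SMADs were measured. Of these, 5 fell and none rose, against 1.85% of all genes called lower, with a median change of -0.10. LRRC32, a membrane protein that docks latent TGF-beta, fell by 0.95 (SE 0.13, limma adjusted p = 0.00928), and SMAD6, an inhibitory SMAD of the BMP branch, fell by 0.91 (SE 0.13, limma adjusted p = 0.0137). The remaining 3, SMAD7, SKIL and LTBP2, were already counted as targets. The count became 3 without FAC replicate 1 or untreated replicate 3, and SMAD6 lost its call without these arrays or FAC replicate 3. The measured SMADs that carry the TGF-beta signal, SMAD2, SMAD3 and SMAD4, did not pass, at 0.07, -0.10 and -0.07. The ligands TGFB1, TGFB2 and TGFB3 and the receptors TGFBR1 and TGFBR2 have no named probe set and were not analysed here.

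Of 16 transcription factors reported in other cells to act on NOX4, 14 were measured and none passed, with 3 at an unadjusted p under 0.05 in limma. Their median change was -0.0080. NFKB1, a subunit of NF-kappaB, had the smallest p (0.17 ± 0.06, adjusted p = 0.160). E2F1 (0.31 ± 0.10, limma adjusted p = 0.168) and PPARG (0.17 ± 0.07, limma adjusted p = 0.246) completed these 3, all with a higher mean with FAC. Both are given here after their values were seen. Over the 14 the mean was higher with FAC in 6 and lower in 8. The list also holds the antioxidant regulator NFE2L2 and the HIF subunits EPAS1 and ARNT, and HIF1A has no named probe set. These are levels of messenger RNA, and the activity of such factors is set largely on the protein.

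**Figure D2:**
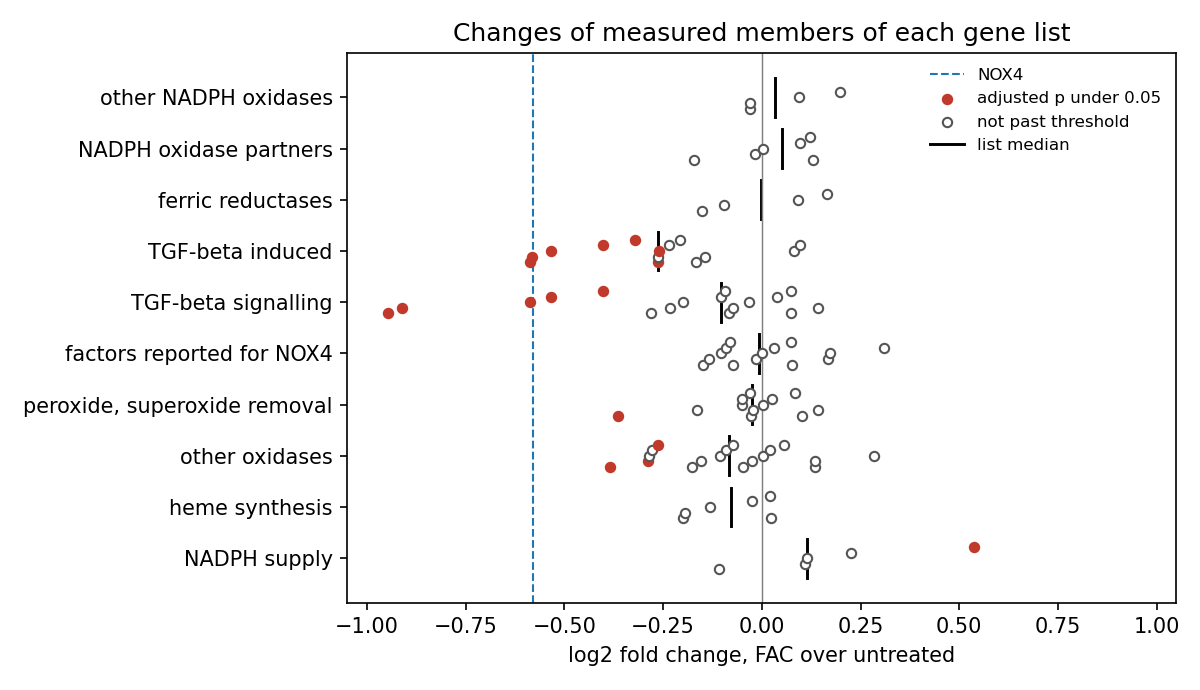
Each point is the log2 fold change of FAC over untreated (x axis) of 1 measured gene, by gene list (y axis), filled where the adjusted p was under 0.05, with a bar at the list median and a dashed line at NOX4 (-0.58). Of the 14 TGF-beta induced genes 7 are filled and all of these lie left of 0. None of the 10 NADPH oxidase family and partner genes is filled, and over all genes 3.73% were called.

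Of 16 listed enzymes that remove hydrogen peroxide or superoxide, 12 were measured, and 1, PRDX4, fell while none rose, against 1.85% of all genes called lower. PRDX4, the peroxiredoxin of the endoplasmic reticulum, a compartment where NOX4 protein is also found, measured 7.50, 7.41 and 7.30 in FAC replicates 1, 2 and 3, against 7.75, 7.72 and 7.83 in untreated replicates 1, 2 and 3. The groups did not overlap (-0.36 ± 0.07, limma adjusted p = 0.0283), but the call was lost without any 1 of the 6 arrays. Catalase (CAT) measured -0.03 ± 0.05 and GPX8, a glutathione peroxidase of the same compartment, -0.16 ± 0.06, and neither passed. PRDX6 (0.14 ± 0.05), PRDX3 (0.10 ± 0.05) and PRDX1 (0.08 ± 0.05), peroxiredoxins of the cytosol and mitochondria, lay above on every FAC array and did not pass, though 1 gene of the list rose with a variance prior that follows intensity. All 5 are named here after their values were seen.

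Other oxidases that form hydrogen peroxide gave 3 falls and no rise among 18 measured of 21 listed genes, against 1.85% of all genes called lower. The 3 became 0 with every probe set tested. ERO1A, the oxidase that drives disulfide formation in the endoplasmic reticulum and is induced by hypoxia, fell to 9.66 ± 0.02 in FAC-treated cells, against 10.04 ± 0.05 in untreated cells (SD, n = 3 each; -0.38 ± 0.05, limma adjusted p = 0.0103). LOXL2 (-0.29 ± 0.06, limma adjusted p = 0.0396) and LOX (-0.26 ± 0.05, limma adjusted p = 0.0335), copper amine oxidases that cross-link matrix, fell as well. All 3 changes were smaller than that of NOX4. The calls of LOX and LOXL2 were lost without any 1 of the 6 arrays, and that of ERO1A without FAC replicate 1 or untreated replicate 3.

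Among the measured genes of cofactor supply, 1 passed. None of 6 measured heme synthesis genes passed, with 3 at an unadjusted p under 0.05 in limma, and ALAD, the second enzyme of that pathway, had the smallest p (-0.20 ± 0.06, adjusted p = 0.137). Of 5 measured genes that make NADPH or feed the pentose phosphate pathway, TKT, the transketolase gene, rose to 12.33 ± 0.04 in FAC-treated cells, against 11.79 ± 0.11 in untreated cells (SD, n = 3 each; 0.54 ± 0.07, limma adjusted p = 0.00804), and none fell. Over all genes 1.88% were called higher, and 1 gene of so short a list describes that gene only.

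Markers of other cell types were read because TGF-beta targets and NOX4 are both strong in fibroblasts and smooth muscle. Of 10 such markers 4 were measured, and 1, the matrix proteoglycan gene LUM, fell (-0.56 ± 0.08, limma adjusted p = 0.0104) with none rising. Over all genes 1.85% were called lower, and 1 gene of so short a list describes that gene only. LUM lost its call without FAC replicate 1, and 2 of the 4 fell with median centring. Their summed linear intensity ran from 683 to 734 on the FAC arrays and from 877 to 992 on the untreated arrays, so it moved with NOX4. Without LUM, the sum of the other 3 overlapped, from 256 to 306 on the FAC arrays and from 270.0 to 318 on the untreated arrays. Among these 3, the proteoglycan gene DCN lay below on every FAC array but missed the threshold (-0.38 ± 0.09, limma adjusted p = 0.0539). THY1, a surface marker of fibroblasts, measured -0.03 ± 0.06 and the muscle gene DES 0.14 ± 0.18, and PDGFRA, PDGFRB, COL1A1, COL1A2, ACTA2 and MYH11 were not analysed here. Of 10 markers of blood and endothelial cells 6 were measured, and CSF1R, the macrophage growth factor receptor gene, fell (-0.37 ± 0.07, limma adjusted p = 0.0365) with none rising, a call that was lost without any 1 array other than untreated replicate 2. This 1 call, too, stands against 1.85% of all genes called lower. The sum of the 6 ran from 2979 to 3184 on the FAC arrays and from 3320 to 3444 on the untreated arrays. CD68, the brightest of the 6, gave most of this sum and did not pass (-0.12 ± 0.06, limma adjusted p = 0.360). The mean was higher with FAC in 3 of the 6 and lower in 3. Of 9 markers of neurons, glia and photoreceptors 5 were measured and none passed, with 3 at an unadjusted p under 0.05 in limma. SAG, the photoreceptor arrestin gene, had the smallest p (0.27 ± 0.08, adjusted p = 0.118), and the glial gene GFAP measured 0.23 ± 0.08. The synaptic gene SYT1 measured -0.21 ± 0.07 (limma adjusted p = 0.174). The sum of the 5 ran from 859 to 872 on the FAC arrays and from 905 to 1003 on the untreated arrays, and without SYT1 it was higher with FAC, from 257 to 282 on the FAC arrays and from 244 to 254 on the untreated arrays. DCN, THY1, DES, CD68, GFAP and SYT1 are named here after their values were seen. All cells were of the ARPE-19 line, so these markers were read as genes of that line and not as a measure of other cells. Any link between them and NOX4 was not tested.

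Of 19 markers of retinal pigment epithelium, 14 were measured and none passed, with 3 at an unadjusted p under 0.05 in limma. Without untreated replicate 3, 1 of them rose, and without untreated replicate 2, 1 fell. RLBP1, the retinaldehyde-binding protein gene, had the smallest p (0.31 ± 0.08, adjusted p = 0.0843). The summed intensity of the 14 overlapped between the groups, from 6677 to 6809 on the FAC arrays and from 6543 to 7728 on the untreated arrays. By signal, 3 of the 14 stood among the dimmest 33.3% of genes, namely RPE65 and LRAT of the visual cycle (percentiles 22.6 and 29.4) and the channel gene BEST1 (26.5). Other visual cycle genes stood higher, RLBP1 at percentile 46.0 and RGR at 50.2, and the transcription factor gene OTX2 stood at 97.7. Without detection calls these values do not say which of the markers were expressed.

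Of the 3 nearest measured genes on each side of NOX4 on chromosome 11, none passed the test (none had an unadjusted p under 0.05 in limma), and the groups of all 6 overlapped. Over all genes 3.73% were called and the groups did not overlap in 23.4%, so both were usual. GRM5-AS1, TRIM49, TRIM64B and TRIM64 stood at percentiles 2.24, 4.19, 13.1 and 12.7, where a change can be hidden by background. The nearest on the lower side is TYR, the tyrosinase gene of melanin synthesis and itself a marker of pigment epithelium. TYR measured 7.43, 7.67 and 7.49 in FAC replicates 1, 2 and 3, against 7.97, 6.88 and 7.86 in untreated replicates 1, 2 and 3. Untreated replicate 2 was low for TYR, and TYRP1, named here after its values were seen, was also lowest there at 9.48, against 10.45 and 10.28 in untreated replicates 1 and 3. NOX4 did not follow this array, at 10.87, and its change without untreated replicate 2 was -0.59. The cathepsin C gene CTSC measured -0.13 ± 0.11, and GRM5-AS1, an antisense RNA of a glutamate receptor gene, measured -0.0051 ± 0.07. On the other side lie TRIM49, TRIM64B and TRIM64, members of a multigene family of near-identical copies, so that their separate values (0.10, -0.03 and -0.06) are uncertain. The 1 other RefSeq entry within the span of NOX4 is H3P34, a pseudogene with no named probe set.

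**Figure D3:**
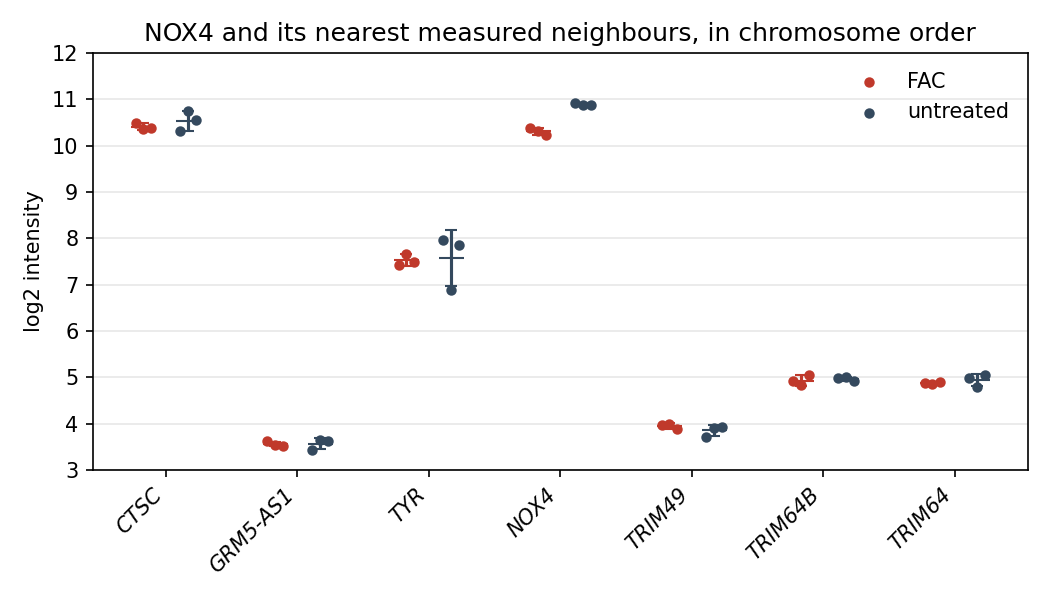
The plot gives log2 intensity (y axis) on each of the 3 FAC and 3 untreated arrays for NOX4 and its 3 nearest measured genes on each side, in chromosome order (x axis), with points for arrays and bars for mean ± SD. The groups are apart for NOX4, which was selected on its change, and overlap for all 6 neighbours. Over all genes the groups did not overlap in 23.4%.

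Genes with the most similar profile were ranked by Pearson's r with NOX4 over the 6 arrays, among 765 genes of at least median level whose SD was at least 0.5 times that of NOX4. With 2 groups of 3 arrays, this likeness reflects mainly the difference between the groups, and r was above 0.95 in 104 of the 765 and below -0.95 in 73. The most similar were APAF1, the scaffold of the apoptosome (r = 0.997, change -0.33), the collagen prolyl 3-hydroxylase gene P3H1 (r = 0.996, change -0.38) and the sulfotransferase gene CHST2 (r = 0.995, change -0.37). They were followed by KCTD16, an auxiliary subunit of GABA-B receptors (r = 0.994, change -0.52), the endoplasmic reticulum factor gene MANF (r = 0.993, change -0.37) and FKBP7, a prolyl isomerase of the same compartment (r = 0.992, change -0.50). The adhesion gene NECTIN3 (r = 0.990, change -0.39) and the interferon-induced gene IFI44L (r = 0.990, change -0.88) closed the list. None of the 8 stands in the lists of NADPH oxidase or TGF-beta genes. In all 8 the FAC arrays lay below the untreated ones, and 7 had their highest FAC value in replicate 1, as NOX4 did. The ranking by r over these same arrays favours both traits, so neither is further evidence of likeness. KCTD16 resembled NOX4 also in size, with 7.62, 7.54 and 7.48 in FAC replicates 1, 2 and 3, against 8.04, 8.10 and 8.05 in untreated replicates 1, 2 and 3.

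The most opposite profiles were those of MME, the membrane protease neprilysin (r = -0.997, change 0.48), the fatty acid synthase gene FASN (r = -0.990, change 0.41), the myosin gene MYO1D (r = -0.990, change 0.39) and ALOX5, the lipoxygenase that starts leukotriene synthesis (r = -0.989, change 0.59). ALOX5, which like NOX4 encodes an iron-containing oxidizing enzyme, measured 8.83, 9.00 and 8.97 in FAC replicates 1, 2 and 3, against 8.37, 8.31 and 8.37 in untreated replicates 1, 2 and 3. Its rise and the fall of NOX4 were close to each other in size on the log2 scale.

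**Figure D4:**
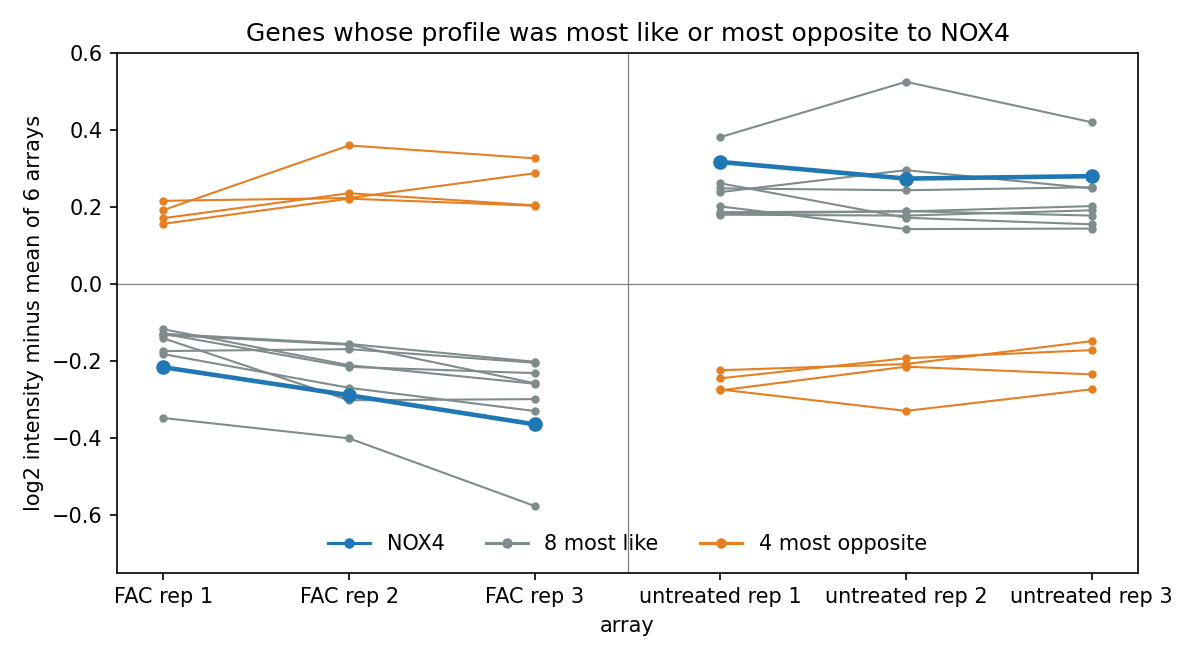
The plot gives log2 intensity minus the gene's mean over the 6 arrays (y axis) by array (x axis) for NOX4, the 8 most similar and the 4 most opposite genes, with a line joining the arrays of a group for each gene. All 8 similar genes lie below 0 on the FAC arrays and above 0 on the untreated arrays, and the 4 opposite genes the other way round.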

How the data were processed

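The authors deposited 1 table of log2 intensities with 53617 probe sets and 6 arrays, whose scale was read from its range, 2.41 to 14.22. The submitters' processing notes name RMA and Partek 6.6 and give neither role nor order, and the genome build is not given in the sources used here. Of the probe sets, 16098 had 1 gene symbol in the platform annotation, none had several and 37519 are unnamed here. The probe set with the highest mean stood for each of the 779 genes with more than 1. Array medians lay between 6.03 and 6.09, arrays correlated at 0.991 to 0.995, and the number of arrays limits the precision (median SE 0.07).

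Each gene was tested between groups in R 4.3.3 with limma 3.58.1 (lmFit, eBayes, 2-sided, Benjamini-Hochberg over 14884 genes, threshold 0.05), a procedure tested on simulated data. Intervals are unadjusted. The 14 gene lists hold 191 genes, 122 of them measured. Named genes were all measured NADPH oxidase genes, up to 4 called members of each other list with the largest changes (or the 1 with the smallest p), 3 neighbours on each side in RefSeq's gene order, and the 8 most and 4 least similar profiles, without uncharacterised loci or genes of small RNAs (80 symbols among those otherwise eligible). NOX4, the lists and this rule were chosen with earlier results of these data known. Alternatives were a filter on dim genes, quantile normalization, median centring, an intensity-trend variance prior, array weights, probe averaging, a test of every probe set, a replicate block, and leaving out each array. Promoter sequences are RefSeq's, GRCh38.p14.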

Additional observations from a re-analysis of the deposited data

How the results depend on the processing

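The NOX4 change stayed negative under all 14 alternatives, between -0.62 and -0.54 without any 1 array and between -0.60 and -0.56 under the others, and the count of called NADPH oxidase genes stayed at 0. Genes called higher with FAC (280) became 462 with an intensity-trend variance prior, 104 with every probe set tested, 89 with a replicate block, and 69 to 249 without any 1 array. Genes called lower (275) became 442 without the dimmest 33.3% of genes and 564 with the variance prior. They became 95 with the replicate block, and 73 to 198 without any 1 array. With every probe set tested, these calls were counted in probe sets and not in genes. Of 53617 probe sets, 104 were called higher with FAC and 150 lower. TGF-beta induced genes that fell (7) became 11 with the variance prior, 2 with every probe set tested, 3 with the replicate block, and 2 to 6 without any 1 array. The 3 other oxidases that fell became 0 with the replicate block. The samples shared only a replicate number: deviations of same-numbered arrays correlated between -0.15 and -0.02, and none of the 6 arrays correlated best with its own number (0 of 6). Of 308 further counts of called genes over the other 11 lists, 273 stayed within 1.5 times, 28 were lower and 7 higher. Most of the 308 started from 0 called genes, which cannot become lower, and 0 staying at 0 was taken as within 1.5 times. The 273 are therefore not a measure of how stable the calls were. Among called genes named in the text by the rule, 10 of 25 passed under every alternative. Some genes near 0 that did not pass changed sign. CYBC1 measured -0.012 with median centring and -0.0070 with array weights, and GRM5-AS1 0.011 with array weights. Without any 1 array, CYBC1 ran from -0.033 to 0.027, GRM5-AS1 from -0.074 to 0.033, NOX1 from -0.098 to 0.022, DUOX2 from -0.090 to 0.022, DUOXA2 from -0.13 to 0.19, TYR from -0.39 to 0.16 and TRIM64B from -0.092 to 0.018. Leaving out an array leaves fewer arrays, and testing every probe set adjusts over more tests. Those counts are therefore not directly comparable with the main ones. The cause of the differences was not tested for any setting. Without detection calls, signal over background could not be read, which limits the dim oxidase genes most.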
